A study of Mus musculus with 8 samples.

Results

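The genes described here belong to the activin, BMP and TGF-beta receptor system and were measured in neutrophils from bone marrow. The set held 8 receptor genes (Acvr1, Acvr1b, Acvr2a, Acvr2b, Bmpr1a, Bmpr2, Tgfbr1 and Tgfbr2) and 2 intracellular regulators, Smad7 and Skil. Every non-control probe that carried a RefSeq transcript of 1 of these 10 genes was taken, which gave 15 of the 55681 probes on the array. All 10 genes were among the 21236 tested, with 14 of their 15 probes past the filter on dim probes, which asks for signal well above background on 4 or more of the 8 arrays. The set was selected on the same differences in log2 signal between the genotypes that are described here, so these differences are given without a test and support nothing.

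The cells came from ATF3 KO mice, which lack the stress-induced transcription factor ATF3, and from wild-type (WT) mice, all on a C57BL/6 background, with 4 samples per genotype. Magnetic beads were used to take the fraction of flushed tibial and femoral marrow that carries Ly6G, a neutrophil surface protein, and RNA from it was measured on Agilent single-colour arrays. The labels give no age or sex and name no deletion or Cre driver beyond the genotype. They also conflict, since the series design describes RNA taken from freshly sorted cells, whereas for 7 of the 8 samples a description mentions culture in methylcellulose with 4-OHT. Separate animals are stated for none of the samples, so p-values measure only the spread between these samples, which may be technical.

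Ligands of this family bind a complex of type II and type I receptors. The type II receptor is constitutively active and phosphorylates the type I receptor, which then phosphorylates Smad proteins that move to the nucleus with Smad4. Activin and TGF-beta receptors act mainly through Smad2 and Smad3, and BMP receptors through Smad1, Smad5 and Smad9. TGF-beta is known as an attractant of neutrophils and as a factor that alters their state in tumours. In human epithelial cells ATF3 is known to join Smad3 in repressing Id1.

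Of the 14 neutrophil markers listed, 13 had a named probe and all 13 were above background on all 8 arrays. Ly6g itself was not among them. The single named probe for Atf3 read higher in ATF3 KO. On the log2 scale used throughout it was 1.24 ± 0.27, against 0.73 ± 0.07 in WT (SD, n = 4 each). Every ATF3 KO value lay above every WT value, so this probe shows no loss of Atf3 signal in ATF3 KO. Whether it lies in the deleted part is not known here, so it checks nothing about the labels. Across 21236 genes, limma called 95 at an adjusted p under 0.05, with 78 higher and 17 lower in ATF3 KO. The share of calls that were higher in ATF3 KO was 82.1%, but 62.2% of 251 calls after normexp, 71% of 31 calls after quantile normalization and 40% of 10 calls with no filter on dim probes. Without WT replicate 1 it was 33.3% of 9 calls and without WT replicate 3 it was 53.8% of 13, so the excess of higher calls did not hold under every setting. When 1 array was left out, the number of calls ran from 9 without WT replicate 1 to 234 without ATF3 KO replicate 3. All values below are log2 processed signal minus the array's 75th percentile, and the median difference of all genes on this scale, ATF3 KO minus WT, was −0.11.

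One gene stood far from the other members. Acvr2b, which encodes a type II receptor for activins and related ligands, was higher in ATF3 KO, while the other 9 members had differences between −0.39 and −0.02. Acvr2b was the 1 member among the genes called, where 0.447% of all genes tested were called. By direction, 1 member was called higher, as were 0.367% of all genes, and 0 were called lower, as were 0.0801%. These counts only describe the choice of the set. The groups did not overlap for 3 members, with ATF3 KO above WT for Acvr2b and below WT for Tgfbr1 and Tgfbr2. Across all genes, 4.13% lay wholly above and 10.9% wholly below in ATF3 KO.

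**Figure D1:**
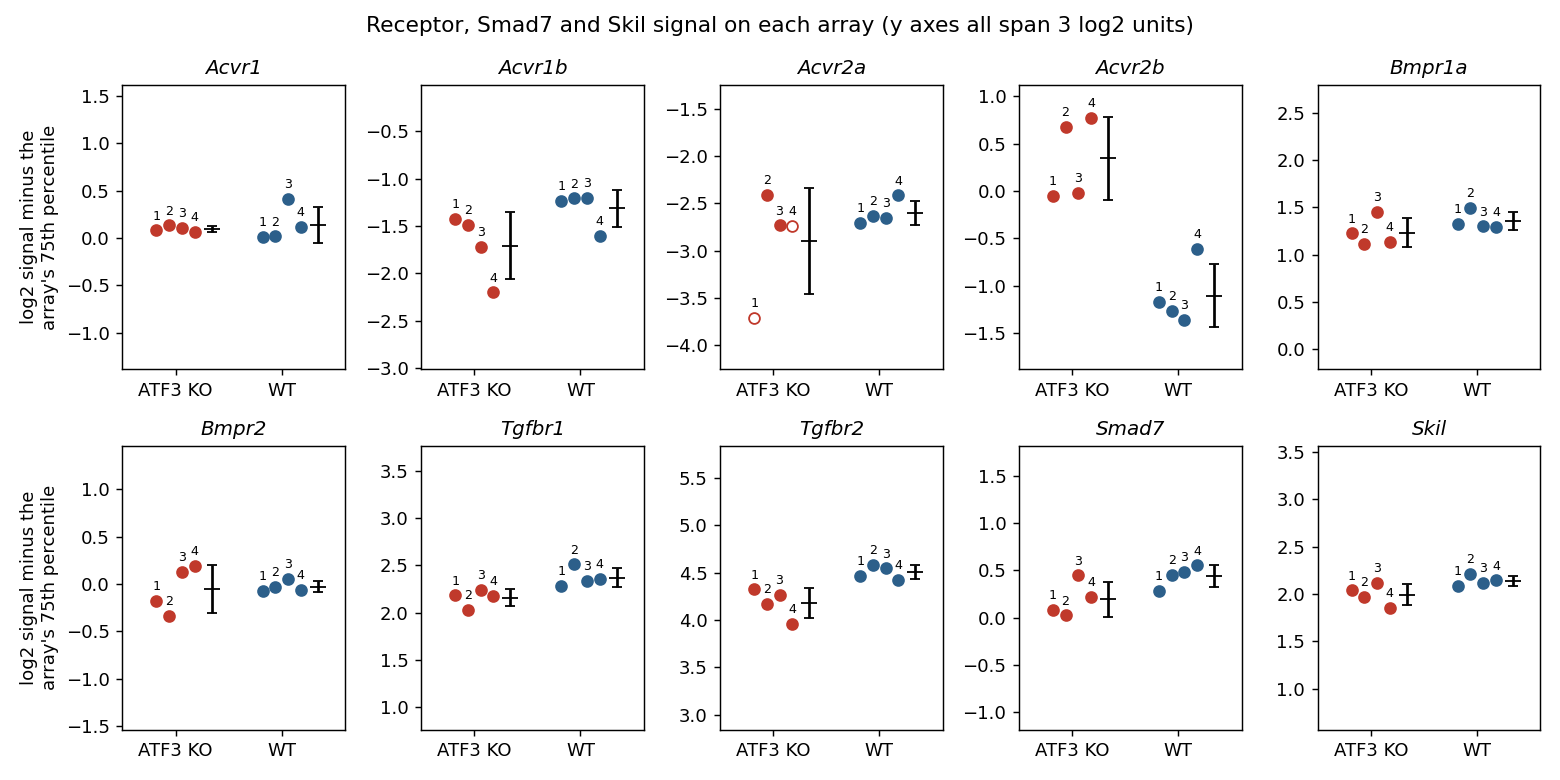
Log2 signal after scaling to each array's 75th percentile (vertical axis, 3 log2 units in every panel) of the probe that stands for each gene, on the 4 ATF3 KO arrays (red) and the 4 WT arrays (blue). Digits are replicate numbers, open points were not above background, and the black bar is the mean with its SD. For Acvr2b the 4 ATF3 KO points lie above the 4 WT points, with replicates 2 and 4 the highest, and for Tgfbr1 and Tgfbr2 they lie below.

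Acvr2b was measured by 1 probe, which was above background on all 8 arrays. Its log2 signal in ATF3 KO was −0.05, 0.68, −0.02 and 0.77 in replicates 1 to 4, against −1.18, −1.27, −1.36 and −0.62 in WT replicates 1 to 4. The ATF3 KO samples fell into a pair near 0 and a pair near 0.7, and WT replicate 4 lay above the other WT samples but below every ATF3 KO sample. The means were 0.34 ± 0.44 in ATF3 KO and −1.11 ± 0.34 in WT (SD, n = 4 each), a difference of 1.45 (SE 0.24) or 2.73-fold, and 1.56 relative to the median of all genes. The difference was present before scaling between arrays, at a processed signal of 137 to 246 in ATF3 KO and 64.1 to 98.4 in WT.

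The size of the Acvr2b difference varied with the processing. With normexp correction of the median spot signal, which differs from the main processing in both signal and background, it was 0.89. With the deposited log2 table it was 0.98. In the other 16 alternatives it lay between 1.31 and 1.61, and it was above 0 in all 18. The call of Acvr2b, which supports nothing since the set was selected on it, was lost in 9 of the 18 alternatives. It was lost without WT replicate 1, 2 or 3, without ATF3 KO replicate 2 or 4, with quantile normalization, with the percentile over detected probes, with no filter on dim probes or with every probe tested.

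**Figure D2:**
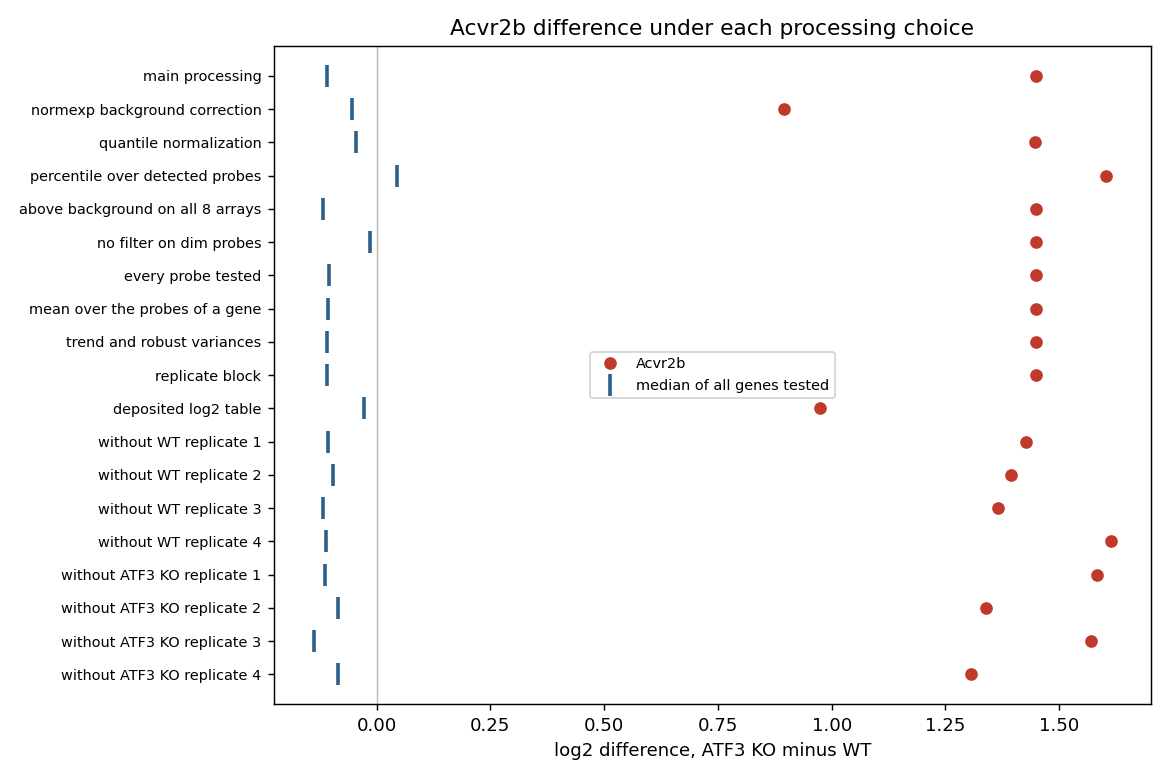
Log2 difference of Acvr2b, ATF3 KO minus WT (points), and the median difference of all genes tested (blue ticks), under the main processing and 18 alternatives. Acvr2b runs from 0.89 with normexp background correction to 1.61 without WT replicate 4 and stays above the median of all genes in each.

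The region upstream of Acvr2b is shown because ATF3 binds DNA, and that of Tgfbr2 beside it because this type II receptor gene differed the other way. Both are the 250 bases before the annotated start in RefSeq's GRCm38.p6 table, on chr9:119401928-119402177 (plus strand) for Acvr2b and chr9:116175364-116175613 (minus strand) for Tgfbr2, and capitals mark the letters CAGAC or their reverse complement, a short element known to bind Smads.
Acvr2b: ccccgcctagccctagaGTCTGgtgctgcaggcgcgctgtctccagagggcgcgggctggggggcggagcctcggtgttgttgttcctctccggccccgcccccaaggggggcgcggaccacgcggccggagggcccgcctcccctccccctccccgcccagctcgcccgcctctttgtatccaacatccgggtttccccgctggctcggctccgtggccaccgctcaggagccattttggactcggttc
Tgfbr2: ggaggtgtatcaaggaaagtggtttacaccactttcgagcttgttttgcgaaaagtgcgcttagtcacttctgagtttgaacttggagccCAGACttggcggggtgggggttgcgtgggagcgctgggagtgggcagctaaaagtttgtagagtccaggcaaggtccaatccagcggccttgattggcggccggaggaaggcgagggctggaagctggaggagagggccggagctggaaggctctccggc
The Acvr2b window is 72.8% G and C and the Tgfbr2 window 58.4%.

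Windows were available for 8 members, 9 in all since Tgfbr1 has a pair. On both strands, the ATF/CREB element TGACGTCA was in 0 of the 9, against 1.55% of 32841 windows of the same length. Its shorter form TGACG, which the longer one contains, was in 0 of 9 against 17.8%, and the AP-1 element TGANTCA in 0 of 9 against 6.75%. CAGAC was in 4 of 9 against 42.2%, and GGCGCC, an element known to bind BMP-regulated Smads, was in 3 of 9 against 9.59%. The last 3 windows were those of Bmpr1a, Bmpr2 and the more upstream start of Tgfbr1, at 78.8%, 64.0% and 74.8% G and C. GGCGCC is made of G and C only, and the 9.59% covers windows of any composition. These shares were not compared at like composition. No match says only that these letters are not in these windows.

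The other type II receptors did not share the pattern of Acvr2b. Acvr2a, the closest relative of Acvr2b and also an activin receptor, was close to background. Its main probe, the one with the highest mean over the arrays as for every gene with several, read −3.71, −2.41, −2.73 and −2.74 in ATF3 KO replicates 1 to 4, where it was above background on 2 arrays, and −2.70, −2.63, −2.65 and −2.42 in WT replicates 1 to 4, where it was above background on all 4. ATF3 KO replicate 1 was low and the groups overlapped, with a difference of −0.30 (SE 0.24). Without ATF3 KO replicate 1 the difference was −0.03, with the deposited table it was −0.04, and with normexp correction it turned to 0.11, so Acvr2a has no settled direction here. The second Acvr2a probe was above background on no array and gives no level.

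Tgfbr2, the type II receptor for TGF-beta, was lower in every ATF3 KO sample than in any WT sample. Its main probe read 4.32, 4.17, 4.26 and 3.96 in ATF3 KO replicates 1 to 4, against 4.46, 4.58, 4.54 and 4.42 in WT replicates 1 to 4. The difference was −0.32 (SE 0.11), which is −0.22 relative to the median of all genes. The second Tgfbr2 probe overlapped, since WT replicate 1 at 0.24 lay among the ATF3 KO values of 0.16 to 0.39, but its mean difference was close, at −0.29. Bmpr2, the type II receptor for BMPs, was near equal at −0.05 ± 0.25 in ATF3 KO and −0.03 ± 0.06 in WT (SD, n = 4 each), with ATF3 KO values on both sides of the WT range.

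Acvr1b encodes a type I receptor for activins. It read −1.42, −1.48, −1.72 and −2.20 in ATF3 KO replicates 1 to 4, against −1.23, −1.21, −1.20 and −1.61 in WT replicates 1 to 4. Replicate 4 was the lowest sample of each group, and WT replicate 4 lay within the ATF3 KO range, so the groups overlapped despite a difference of −0.39 (SE 0.18). The difference was −0.23 without ATF3 KO replicate 4 and −0.13 with normexp correction. Tgfbr1, the partner of Tgfbr2 in TGF-beta signalling, read 2.03 to 2.24 in ATF3 KO and 2.28 to 2.51 in WT at its main probe. These groups did not overlap, but the difference of −0.21 (SE 0.10) was −0.10 relative to the median of all genes, and the second probe, at −1.47 ± 0.26 in ATF3 KO and −1.37 ± 0.20 in WT (SD, n = 4 each), overlapped.

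The type I receptors that serve BMPs differed little. Bmpr1a read 1.23 ± 0.15 in ATF3 KO and 1.36 ± 0.09 in WT (SD, n = 4 each), and ATF3 KO replicate 3, at 1.45, lay within the WT range. Acvr1, whose activating mutations cause heterotopic bone formation in humans, read 0.09 ± 0.03 in ATF3 KO and 0.14 ± 0.19 in WT at its main probe. Its second probe differed by −0.25, with WT replicate 4 the highest sample at −1.54, and the groups overlapped at both probes.

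The intracellular regulators were slightly lower in ATF3 KO and overlapped between the groups. Smad7, an inhibitory Smad induced by TGF-beta that blocks the type I receptor, read 0.08, 0.02, 0.45 and 0.22 in ATF3 KO replicates 1 to 4, against 0.28, 0.45, 0.48 and 0.55 in WT replicates 1 to 4. Only ATF3 KO replicate 3 reached into the WT range, and the difference was −0.25 (SE 0.12). Skil, which encodes the Smad corepressor SnoN, read 1.99 ± 0.11 in ATF3 KO and 2.14 ± 0.05 in WT (SD, n = 4 each). Its main probe is printed 10 times on each array, and the spots of an array had an SD of 0.05 to 0.11, beside a difference between the genotypes of −0.15 (SE 0.09). The second Skil probe differed by −0.10.

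Taken without Acvr2b, the 9 members had a median difference of −0.21, against −0.11 for all genes. All 9 lay below 0, as did 65.5% of all genes, and 7 of the 10 members lay below the median of all genes. These signs followed the scaling. With the percentile over detected probes, which raised the median of all genes by 0.15 to 0.04, 5 of the 10 members lay below 0 and again 7 below that median, and with quantile normalization 9 lay below 0 and 5 below that median. Tgfbr2, Tgfbr1, Acvr1b and Smad7 lay below 0 and below the median of all genes in all 18 alternatives. Their ranges were −0.40 to −0.17 for Tgfbr2, −0.24 to −0.04 for Tgfbr1, −0.49 to −0.13 for Acvr1b and −0.33 to −0.10 for Smad7.

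Acvr2b and the main probe of Tgfbr2 ran opposite to each other from sample to sample. Over the 8 arrays the Pearson correlation of their log2 signals was −0.95, the most negative that Acvr2b had with any of the other 9 members. The genotypes separated in opposite directions for these genes, which largely fixes that value. For the deviations from the group means the correlation was −0.84, again the most negative. Each gene's main probe was used for these correlations. The second Tgfbr2 probe, above background on all 8 arrays, differed in WT. There it was highest in replicate 4 (0.76), as Acvr2b was, and lowest in replicate 1 (0.24). In ATF3 KO its lowest value was in replicate 4 (0.16), where Acvr2b was highest. The genes also share the array's scaling, so these values are only a description. Within the groups Acvr1b (−0.66), Bmpr1a (−0.64) and Skil (−0.64) also ran opposite to Acvr2b, whereas Tgfbr2 ran with Acvr1b (0.85) and Skil (0.84). Acvr2a ran with Acvr2b (0.63), but this value leans on signal close to background. Acvr2a was not above background in ATF3 KO replicate 1, its lowest sample at −3.71, or in ATF3 KO replicate 4.

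The 5 named genes whose pattern over the 8 arrays was most like Acvr2b, out of 12551, were Amer1, Zfp618, Pard6g, Synm and Lingo4. Amer1, which encodes a regulator of Wnt signalling, had the highest Pearson correlation with Acvr2b, at 0.99, and the other 4 had 0.98 to 0.99. The correlations of deviations from the group means, which the choice over the same arrays largely fixes, were 0.93 to 0.97. All 5 were above background on all 8 arrays and higher in ATF3 KO, by 0.74 for Pard6g to 1.58 for Zfp618. In each of the 5, as in Acvr2b, replicates 2 and 4 were the higher ATF3 KO samples and replicate 4 was the highest WT sample.

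**Figure D3:**
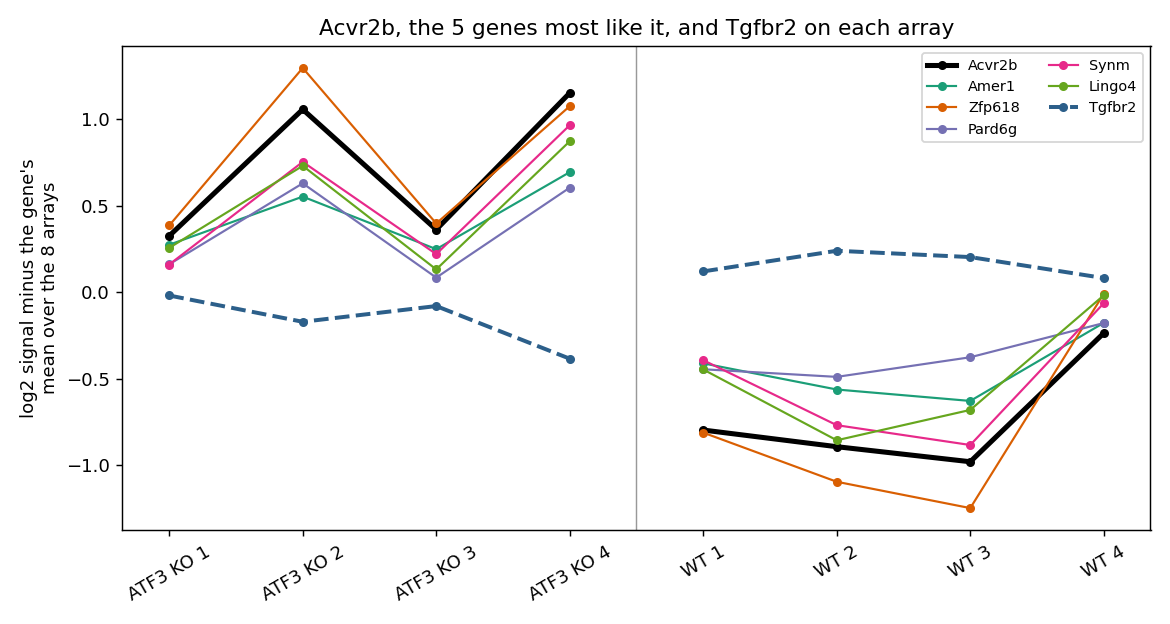
Log2 signal minus each gene's own mean over the 8 arrays (vertical axis) for Acvr2b (black), the 5 genes with the highest correlation with it and Tgfbr2 (dashed blue), on the ATF3 KO arrays (left) and the WT arrays (right). Lines only link the points of a gene. Acvr2b and the 5 genes peak in ATF3 KO replicates 2 and 4, where the main probe of Tgfbr2, the one drawn, is at its lowest.

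Array brightness and the summed levels of some markers of other marrow cells differed between the genotypes, in some cases with overlap. Before scaling, the 75th percentile of processed signal per array was 112 to 161 in ATF3 KO and 151 to 216 in WT, with overlap. Summed over the 10 B lineage markers, all above background on all 8 arrays, linear signal relative to that percentile was 93.1 to 103 in ATF3 KO and 44.4 to 67.0 in WT, and over the 8 stroma and endothelium markers, also all above background, it was 38.4 to 57.8 in ATF3 KO and 66.3 to 93.7 in WT. All 10 B lineage markers had differences above 0 and 0 of the 8 stroma and endothelium markers did, with 0 called in either list. The sum over the 8 dendritic cell markers, 7 of them above background on all arrays, was 551 to 795 in ATF3 KO and 402 to 526 in WT. This list includes Cd74, H2-Aa, H2-Ab1 and H2-Eb1, MHC class II presentation genes that are not particular to dendritic cells. Its sum therefore cannot be assigned to these cells. Over the 6 markers of eosinophils, basophils and mast cells, 4 of them above background on all arrays, the sum was 20.2 to 37.5 in ATF3 KO and 11.1 to 19.7 in WT. Above 0 were 7 of the 8 dendritic markers, with 1 called, but only 3 of the 6 eosinophil, basophil and mast cell markers, with 1 called. Among 8 megakaryocyte markers 7 were above 0, with 0 called, though their sums overlapped. The sum over the 13 neutrophil markers was 10930 to 13250 in ATF3 KO and 8878 to 11220 in WT. It overlapped between the groups, as did the sums over the 6 monocyte and macrophage, 8 megakaryocyte, 7 erythroid, 7 T and NK and 5 progenitor markers. Cd8a, Klrb1c and Ncr1 were above background on no array. Only 1 of the 6 monocyte and macrophage markers had a difference above 0, with 1 called. For T and NK cells 0 of the 4 markers tested did, with 0 called. The tested neutrophil (9 of 13), erythroid (4 of 7) and progenitor (2 of 4) markers went both ways, with 0 called. The part of these cells or of array brightness in the receptor differences was not tested, and in RNA from a sorted fraction fewer cells of a type cannot be told apart from less RNA per cell. The arrays shared 1 slide, with each genotype in a row of its own, and a row effect cannot be told apart from genotype.

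The other genes of the pathway were listed by role, with 101 genes of which 69 passed the filter on dim probes. None of the 69 passed limma's threshold over all genes, where 0.447% of all genes did. At an unadjusted p under 0.05 there were 15 (5 higher and 10 lower in ATF3 KO), or 21.7%, against 23.9% of all genes (9.39% higher and 14.5% lower). Their median difference was −0.15, against −0.11 for all genes. Of the 18 alternatives, 15 also called 0 of them. Ltbp2 was called lower in ATF3 KO with normexp background correction (−0.49, limma adjusted p = 0.0465) and with trend and robust variances (−0.69, limma adjusted p = 0.0458). Bmp6, named after its values were seen and too dim for the filter, was called lower with no filter (−1.77, limma adjusted p = 0.0372). In that setting 10 of 37057 genes were called.

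**Figure D4:**
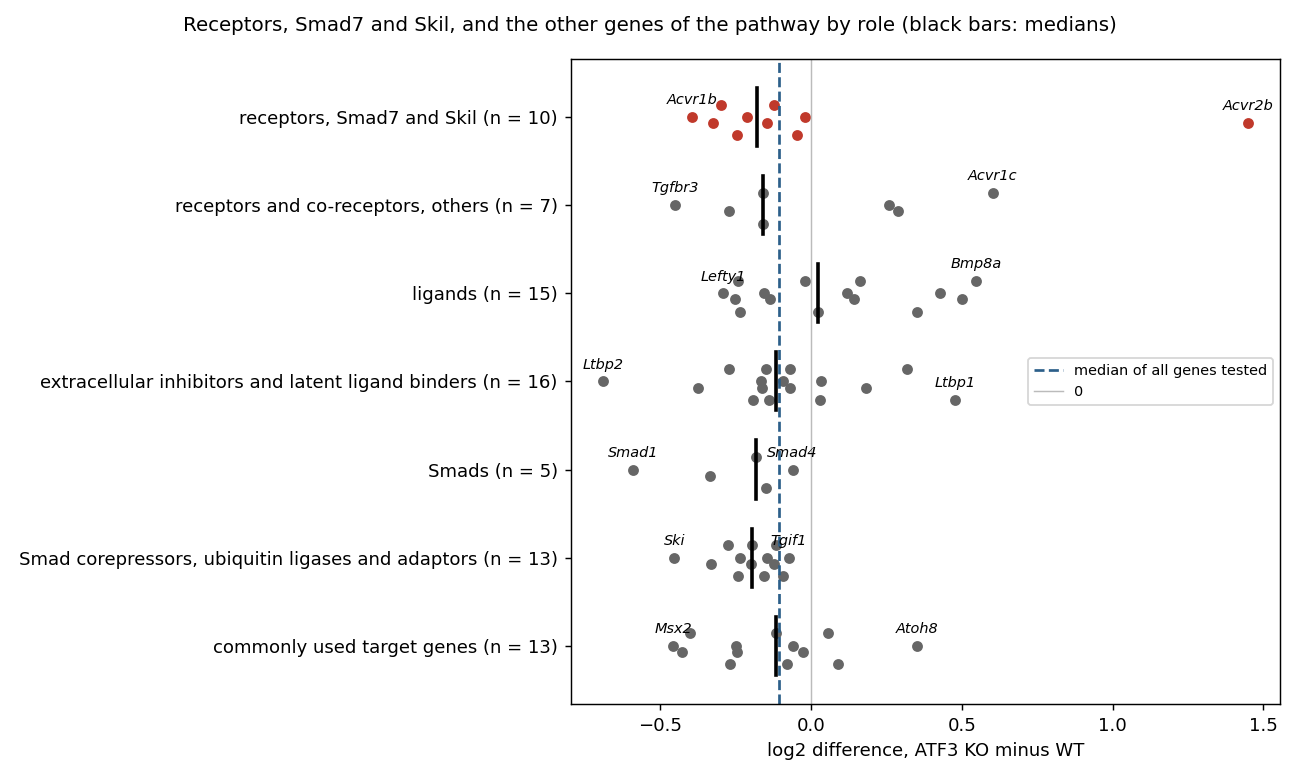
Log2 difference, ATF3 KO minus WT (horizontal axis), of Acvr2b and the other 9 members (red) and of the 69 other pathway genes tested, by role (grey). Black bars are medians and the dashed line is the median of all genes, −0.11. Acvr2b, at 1.45, lies above every pathway gene, the next being Acvr1c at 0.60.

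Among ligands, 15 of 33 were tested, 0 were called, and the median difference was 0.02. Tgfb2, a TGF-beta isoform, averaged −1.23 ± 0.20 in ATF3 KO and −1.66 ± 0.11 in WT (SD, n = 4 each), with every ATF3 KO value above the WT values (limma adjusted p = 0.124). Bmp8a had a difference of 0.55 (limma adjusted p = 0.149), and the Nodal antagonists Lefty2 and Lefty1 had 0.50 and −0.29. Of these, Bmp8a was also separated between the groups and both Lefty genes overlapped.

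Of 11 other receptors and co-receptors, 7 were tested and 0 called. Acvr1c, a type I receptor for Nodal and activins, differed by 0.60 (SE 0.17, limma adjusted p = 0.126), at −1.43, −1.02, −1.66 and −1.12 in ATF3 KO replicates 1 to 4 and −1.99, −1.99, −1.56 and −2.09 in WT replicates 1 to 4. As for Acvr2b, replicates 2 and 4 were the highest ATF3 KO samples, but ATF3 KO replicate 3 lay below WT replicate 3. Tgfbr3, the co-receptor betaglycan, differed by −0.45 (SE 0.13, limma adjusted p = 0.128) with no overlap. Acvrl1 (−0.27) and the co-receptor gene Eng (−0.16), both best known from endothelium, overlapped.

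Of 21 extracellular inhibitors and latent ligand binders, 16 were tested and 0 called. Ltbp2, a matrix protein of the latent TGF-beta binding family, averaged −0.25 ± 0.21 in ATF3 KO and 0.44 ± 0.23 in WT (SD, n = 4 each) and had the smallest adjusted p of the 69 (0.0866 by limma). Ltbp1, which tethers latent TGF-beta in the matrix, differed by 0.48 (limma adjusted p = 0.156), with all ATF3 KO values above all WT values. The BMP antagonist Nog differed by −0.38, and Fstl3, which binds activins, by −0.27, and both overlapped.

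Of 7 Smad genes listed, 5 were tested, all with differences below 0, a median of −0.18 and 0 called. Smad1 had −0.59 (limma adjusted p = 0.16), but it was close to background, above it on 3 ATF3 KO arrays and 4 WT arrays, and the groups overlapped. Smad2 had −0.34 with no overlap (limma adjusted p = 0.158), while Smad3 (−0.18) and Smad5 (−0.15) overlapped. Of 14 corepressors, ubiquitin ligases and adaptors, 13 were tested with 0 called, a median of −0.20 and all 13 below 0. Among them were the ubiquitin ligase gene Smurf2 (−0.24), the phosphatase gene Ppm1a (−0.33), Zfyve16 (−0.20) and the corepressor gene Ski (−0.45). Ski was above background on 1 ATF3 KO array and 3 WT arrays. Across all genes 65.5% lay below 0, with a median of −0.11. The signs in both lists depend on the scaling. With the percentile over detected probes the median of the 69 pathway genes was 0.006, against 0.04 for all genes.

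Of 15 commonly used target genes, 13 were tested with 0 called and a median difference of −0.12. Junb, an AP-1 gene that many stimuli induce, averaged 1.22 ± 0.26 in ATF3 KO and 1.65 ± 0.18 in WT (SD, n = 4 each), with no overlap (limma adjusted p = 0.156). Klf10, a TGF-beta-induced zinc finger gene, differed by −0.25 with no overlap (limma adjusted p = 0.184), and Msx2 (−0.46) and Pmepa1 (−0.40) overlapped. Id1, given for its known link with ATF3 and outside the rule for named genes, averaged 3.51 ± 0.22 in ATF3 KO and 3.54 ± 0.15 in WT (SD, n = 4 each), a difference of −0.03 (SE 0.13, limma adjusted p = 0.91).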

How the data were processed

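RNA of 4 ATF3 KO and 4 WT samples was measured with Cy3 alone on Agilent arrays, 1 sample per array, per the labels' protocols. The deposited scanner files hold spot intensity as Agilent Feature Extraction wrote it. The file headers give its version as 10.9.1.1, whereas the submitters' processing notes have 10.10. Background subtraction and spatial detrending of the processed signal were done within an array, per the file headers. A deposited table of all samples gives log2 values, without a statement of scale, centring or direction. Its columns followed the log2 median signal of the matching arrays (r across probes 0.998 to 1) and had medians from 6.15 to 6.16, and the table served as an alternative.

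Control spots and outlier-flagged spots (98 to 159 per array) were left out, no spot was saturated, and repeated spots were averaged per probe. Log2 processed signal was set relative to the 75th percentile of its array, taken over every probe because 50.01% of probe values exceeded background. A probe was kept if at least 4 of the 8 arrays had it above background, whatever their group, which held for 27942 probes and 14 of the 15 member probes. The probe with the highest mean stood for a gene. RefSeq accessions were matched without versions to a GRCm38.p6 gene table, which named 27235 probes and left 28446 without a symbol; the array headers name another build, so that table's gene coordinates are not given. Promoter windows are RefSeq's, from the same build.

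The comparison of genotypes used lmFit and eBayes (limma 3.58.1, R 4.3.3) with Benjamini-Hochberg adjustment over all 21236 genes. The fit was tested on simulated data. SE is limma's moderated standard error. The members and gene lists were chosen with earlier results of these data known. The genes named are all members, the 4 smallest p-values of each pathway list, the 5 genes most correlated with Acvr2b, and Atf3. The normexp alternative (offset 50) used the median signal, since the scanner files used here have no mean signal column. The number of arrays limits the precision.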

Additional observations from a re-analysis of the deposited data

Results flagged for a closer look

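In 5 of the 78 groups of 4 samples examined (the 15 member probes and 24 named pathway genes), 1 sample lay far from the other 3, by a gap over 0.829 of the group's range, and chance gives about 1 in 20 such groups. All 5 were WT samples. Acvr1b read −1.61 in WT replicate 4, against −1.23 to −1.20 in the other WT samples. Bmpr1a read 1.50 in WT replicate 2, against 1.30 to 1.33. The second Skil probe read −0.68 in WT replicate 1, against −0.29 to −0.22. Ltbp1 read −2.41 in WT replicate 2, against −2.31 to −2.29, and Nog read −0.36 in WT replicate 4, against −0.98 to −0.90.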

How the results depend on the processing

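The count of genes called was 95, and it was 251 with normexp background correction, 192 with trend and robust variances, 149 with the deposited log2 table, 58 with every probe tested, 44 with the percentile over detected probes, 31 with quantile normalization and 10 with no filter on dim probes. Leaving out 1 array gave 9 to 234 genes, namely 9, 36, 13 and 59 without WT replicates 1 to 4 and 124, 20, 234 and 29 without ATF3 KO replicates 1 to 4. The count of pathway genes called was 0, and it was 1 with normexp, 1 with no filter and 1 with trend and robust variances, and from 0 to 0 when 1 array was left out. With the replicate number as a block 72 genes and 0 pathway genes were called and the member differences were the same. Samples of the same number had correlated deviations of −0.27 to 0.19, and 0 of 4 ATF3 KO samples correlated best with their own number, so the numbers were not taken as pairs. Of 179 member differences recomputed, 14 moved by more than the replicate SD, 5 with the percentile over detected probes, 5 with the deposited table, 3 with quantile normalization and 1 with normexp. The causes were not tested. Acvr2a could not be fitted with the filter on all 8 arrays, and signal close to background limits what it shows.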
